A study of Homo sapiens with 38 samples.

Results

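The BCL2 family sets the point at which the mitochondrial route to apoptosis is entered. Pro-survival members hold the effector proteins BAX and BAK1 in check, and BH3-only members release or directly activate those effectors, which then open pores in the outer mitochondrial membrane. Neuroblastoma cells are known to depend on BCL2 or MCL1, and the messenger RNA of the family was followed here through an epigenetic inhibitor, an siRNA against its target and a cell cycle inhibitor. The 10 members were fixed by symbol: the pro-survival genes BCL2, BCL2L1 and MCL1, the effectors BAX and BAK1, and the BH3-only genes BCL2L11 (which encodes BIM), BID, BBC3 (PUMA), PMAIP1 (NOXA) and BAD. All 10 were present among the 49070 gene symbols shared by the 38 count files, and all 10 passed the low-count filter in each of the 3 experiments.

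RNA-seq read counts came from 27 libraries of 5 human neuroblastoma cell lines. BE2C cells were exposed to GSK-J4, a small molecule that inhibits the histone H3 lysine 27 demethylases KDM6A and KDM6B, at 2.5 µM for 0 h, 24 h or 48 h (2 libraries each). BE2C cells were also transfected for 72 h with a control siRNA (siCtrl, 2 libraries) or with siKDM6B N1, N2 or N33 (1 library each). CHLA15 and CHLA20 cells received palbociclib, an inhibitor of the cyclin-dependent kinases CDK4 and CDK6, at 300 nM and NB1643 and NB1691 cells at 3 µM, for 72 h, each beside untreated cells called control here (2 libraries per line and condition). No genetic change was introduced into any line, and the labels do not say whether libraries of a group came from separate cultures, so the p-values measure the spread between these libraries only.

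Libraries held 36186567 to 63433818 gene counts in the GSK-J4 experiment, 41227956 to 50776662 in the siRNA experiment and 45457371 to 93011010 in the palbociclib experiment. Each member was counted at least 110 times in every library. Counting error weighed most where counts were lowest, as for BBC3 in BE2C cells at 0 h (178 and 150 counts). Of 10 neuroblastoma markers, among them HAND2, GATA3 and DBH, all 10 reached a mean of 1 CPM (gene counts scaled to library size, with the TMM adjustment) in every group except NB1691 control, where 9 did. The summed level of these markers was 675 to 755 CPM in NB1691 control and 3005 to 3615 CPM in the control libraries of CHLA15, CHLA20 and NB1643. The libraries labelled NB1691 also held COL1A1, a fibrillar collagen gene usual in mesenchymal cells, at 14558 to 14841 CPM in control and 18995 to 19850 CPM with palbociclib, against at most 106 CPM in the control libraries of the other 3 lines. They further held MDM2, which encodes a ubiquitin ligase, at 6903 to 7026 CPM in control, against 61.6 to 78.6 CPM in control libraries of the other 3. MYCN was at 86.1 and 86.5 CPM in NB1691 control, 3093 and 3257 CPM in NB1643 control and 2.28 to 3.39 CPM in the control libraries of CHLA15 and CHLA20. The identity of the line was not checked against an independent source, and every value given for NB1691 is that of the libraries so labelled. The immune marker PTPRC was at 0.544 CPM or less in every library and the Schwann cell marker SOX10 at 0.0166 CPM or less. Among the siRNA libraries, N33 stood apart, with a neuroblastoma marker sum of 1030 CPM against 2422 to 3620 CPM in the other 4.

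Positions are in GRCh37, from the GENCODE v44lift37 annotation. BCL2 occupied chr18:60790579-60987361, BCL2L1 chr20:30252255-30311792 and MCL1 chr1:150533371-150552214, all on the minus strand. BAX occupied chr19:49458072-49465055 on the plus strand and BAK1 chr6:33540324-33548070 on the minus strand. BCL2L11 (chr2:111876955-111926021) and PMAIP1 (chr18:57567228-57571537) were on the plus strand, and BID (chr22:18216904-18257536), BBC3 (chr19:47724079-47736023) and BAD (chr11:64037302-64052176) on the minus strand. Exons of MCL1, BCL2L1, BAK1, BCL2L11 and BAD overlap genes on the opposite strand that the count files also list, ADAMTSL4, ABALON, GGNBP1, MIR4435-2HG and GPR137 respectively. Whether counting used strand is not given in the sources used here, so reads in these overlaps could not be assigned to one strand. The counts are per gene and do not separate spliced forms such as the long and short products of BCL2L1 or the forms of BIM.

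Levels were first compared per kilobase of exon (CPM divided by the length of the merged exons), the scale on which different genes can be set side by side. MCL1, which encodes a short-lived pro-survival protein, was the highest member in BE2C cells at 0 h, with a mean of 52.8 CPM per kilobase, ahead of BAX at 13.6 and BID at 13.3. BBC3 was the lowest there at 1.43 CPM per kilobase, and BCL2 ranked 8th of the 10 at 3.52. In untreated CHLA15, CHLA20 and NB1643 cells PMAIP1 ranked 1st, at 33.4, 47.6 and 33.7 CPM per kilobase, and MCL1 2nd, at 32.8, 33.8 and 30.8. With palbociclib MCL1 ranked 1st in each of these 3 lines, and PMAIP1 fell to 5th, 5th and 4th place at 18.7, 19.6 and 17.0 CPM per kilobase. In untreated NB1691 cells BAX ranked 1st at 40.9 CPM per kilobase and BCL2 10th at 1.04.

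The first comparison asked how the family responded to GSK-J4 over time. KDM6B mRNA, a target of the compound, was itself 2.09-fold higher at 24 h and 2.99-fold higher at 48 h. BBC3 and PMAIP1, which encode the BH3-only proteins PUMA and NOXA, rose more than 2-fold by 24 h, BCL2 and BCL2L1 rose by less, and BAX, BAK1 and MCL1 fell. At 24 h 7 of the 10 members passed the test (adjusted p under 0.05), 4 higher and 3 lower, while 55.3% of all 17734 tested genes passed, 27.3% higher and 28% lower. At 48 h all 10 passed, 5 higher and 5 lower, against 71.5% of all tested genes, 37.1% higher and 34.4% lower. Between 24 h and 48 h all 10 passed as well, 4 higher and 6 lower, against 53.9% of tested genes, 25.9% higher and 28% lower. Of these later calls, that for BCL2L1 did not hold without 24 h replicate 2 (adjusted p = 0.266), 48 h replicate 1 (0.196) or 48 h replicate 2 (0.064), with DESeq2 (0.195) or without a filter (0.136). That for MCL1 did not hold with upper quartile scaling (adjusted p = 0.117). With a change above 0.5 on the log2 scale also required, 3, 7 and 2 members were counted at 24 h, at 48 h and between them, where 21.7%, 42.2% and 17.5% of tested genes were. With so many genes called, these counts say little about the family, and the description that follows concerns which members moved and by how much. At 48 h the 7 pro-death members had a median of -0.21 on the log2 scale and the 3 pro-survival members one of 0.48, with 0.05 over all tested genes, and both sets held members that rose and members that fell. The 24 h and 48 h comparisons share the 0 h libraries. No untreated libraries were taken at 24 h or 48 h, so the compound and the time in culture cannot be told apart here.

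PMAIP1, whose product binds MCL1 and promotes its degradation, stood at 20.7 and 18.8 CPM in the 2 libraries at 0 h, 45.7 and 42.2 CPM at 24 h, and 50.7 and 47.9 CPM at 48 h. Every treated library lay above both untreated ones, and the 24 h and 48 h libraries did not overlap either. With 2 libraries per group, such statements only describe the values. No share over all tested genes is given for them in the GSK-J4 and palbociclib experiments. The rise was 2.22-fold at 24 h (log2 fold change 1.15 ± 0.06 SE, adjusted p = 1.52e-22) and 2.50-fold at 48 h (1.32 ± 0.05, adjusted p = 8.72e-26). BBC3, whose product neutralises all pro-survival members, was at 4.91 and 4.22 CPM at 0 h, 10.6 and 10.0 CPM at 24 h, and 8.85 and 7.91 CPM at 48 h. It had its highest values at 24 h, with a rise of 2.26-fold (log2 1.18 ± 0.10, adjusted p = 1.84e-13), and was lower at 48 h than at 24 h (log2 -0.29 ± 0.09, adjusted p = 0.00315), a difference that did not pass without 48 h replicate 2 (-0.23, adjusted p = 0.0616). The further step in PMAIP1 from 24 h to 48 h was 0.17 on the log2 scale (adjusted p = 0.00183), and it too did not pass without 24 h replicate 2 (adjusted p = 0.125) or without 48 h replicate 1 (adjusted p = 0.122), nor with DESeq2 (adjusted p = 0.0537).

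BCL2L11 encodes BIM, a BH3-only protein that binds every pro-survival member and is induced by growth factor withdrawal. It was at 13.5 and 15.6 CPM at 0 h and 15.7 and 14.9 CPM at 24 h, so that the libraries overlapped, and at 21.1 CPM in both libraries at 48 h. The change was 0.07 ± 0.07 at 24 h (95% interval -0.07 to 0.22, adjusted p = 0.424) and 0.54 ± 0.07 at 48 h (adjusted p = 1.34e-09), so the rise took place between 24 h and 48 h (0.46 ± 0.06, adjusted p = 2.02e-08). BID and BAD, whose products are switched on by cleavage and by dephosphorylation rather than by transcription, followed a later and opposite course. Neither passed at 24 h (log2 0.00 for BID, 95% interval -0.09 to 0.08, and -0.06 for BAD, 95% interval -0.24 to 0.13). By 48 h BAD had fallen from 8.53 and 9.29 CPM to 6.11 and 5.93 CPM (log2 -0.56 ± 0.09, adjusted p = 1.05e-06) and BID from 58.3 and 59.5 CPM to 51.5 and 50.6 CPM (-0.21 ± 0.04, adjusted p = 2.31e-05).

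**Figure D1:**
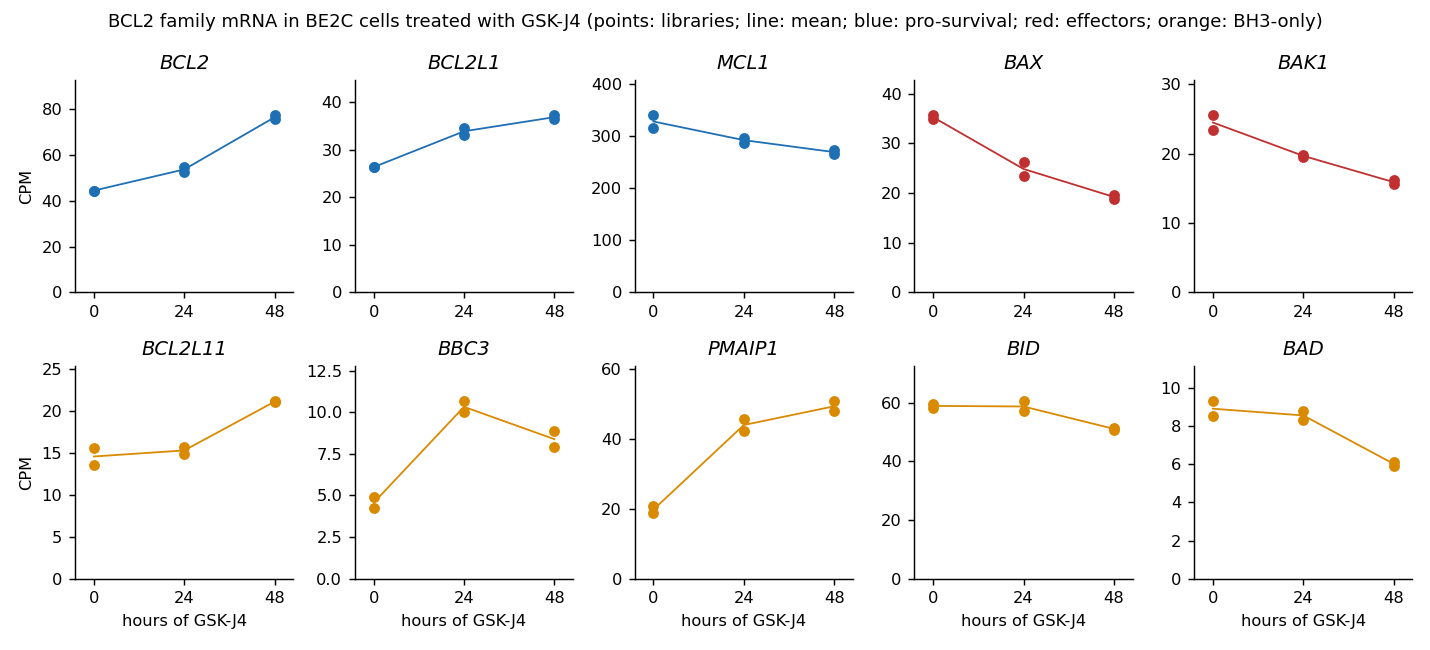
Level of each BCL2 family member in CPM (vertical axis, from 0) against hours of GSK-J4 at 2.5 µM in BE2C cells. Points are libraries (2 per time) and lines join the means; BCL2, BCL2L1, BCL2L11 and PMAIP1 were highest at 48 h, BBC3 at 24 h, and MCL1, BAX, BAK1, BID and BAD were lowest at 48 h.

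Both effectors fell at each step. BAX was at 35.7 and 34.8 CPM at 0 h, 26.2 and 23.5 CPM at 24 h, and 18.8 and 19.7 CPM at 48 h, with no overlap between any 2 times. It was 1.42-fold lower at 24 h (log2 -0.50 ± 0.06, adjusted p = 1.02e-10) and 1.84-fold lower at 48 h (-0.88 ± 0.06, adjusted p = 1.29e-18). BAK1, the second pore-forming effector, started from 25.6 and 23.4 CPM, with 19.6 and 19.8 CPM after 24 h and 15.6 and 16.2 CPM after 48 h. Its fall was 1.24-fold at 24 h and 1.54-fold at 48 h (log2 -0.63 ± 0.06, adjusted p = 1.61e-12). PMAIP1 and BBC3 mRNA thus rose while the mRNA of both effectors declined.

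The promoters of the members were searched for several motifs, among them the E-box CACGTG, the letters bound by MYC family factors and other bHLH proteins. MYCN fell with GSK-J4 in the same libraries (log2 -1.06 at 48 h, past the threshold). It went from 3004 and 3027 CPM at 0 h to 1433 and 1467 CPM at 48 h, and its part in the BAX values was not tested. MYC, which binds the same letters, rose past the threshold from a low level, with 0.304 and 0.197 CPM at 0 h against 2.02 and 1.52 CPM at 48 h (log2 2.82). RefSeq promoters (250 bases before to 50 bases after the start site, taken from GRCh38.p14) were found for 9 of the 10 members, and the sequences below each matched once and exactly in GRCh37. The BAX promoter held 4 E-boxes, at -138, -93, -45 and -14 from its RefSeq start site, and is shown for that reason. Of 27305 promoters, 7.43% held at least 1 such E-box and 5 promoters, 0.0183%, held 4 or more. The first 2 BAX windows lie before the GENCODE start of the gene and the last 2 inside its annotated span; BBC3, the other member with an E-box, had 1 at -232, before the gene. Capitals mark the E-box (CACGTG reads the same on both strands) or, in BCL2L11, the FOXO motif, and each line is 5′ to 3′ on the strand of the gene.
BAX chr19:49457982-49458011: tcattggacagtCACGTGacgggaccaaac
BAX chr19:49458027-49458056: ggcaggtgcggtCACGTGacccggcggcgc
BAX chr19:49458075-49458104: ttgcggggcggcCACGTGaaggacgcacgt
BAX chr19:49458106-49458135: cagcggggctctCACGTGacccgggcgcgc
BBC3 chr19:47736139-47736168: atggggagatttCACGTGagatatagatta
BCL2L11 chr2:111878257-111878286: gagttactccgGTAAACAcgccagggacgg

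The BCL2L11 promoter is shown because it was the only one of the 9 with the FOXO motif GTAAACA (either strand), at -223 and inside the annotated span of the gene; FOXO factors are known activators of BCL2L11, and 3.41% of all promoters held these letters. The E2F letters TTTGGCGC and TTTCCCGC, the cyclic AMP response element TGACGTCA and the ATF4 composite TGATGNAAT were found in none of the 9 windows, and in 0.659%, 1.66%, 1.98% and 1.02% of all promoters. A match describes letters only, and no binding was measured in these count files.

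Of the pro-survival genes, BCL2 rose in 2 steps. It was at 44.4 and 44.3 CPM at 0 h, 54.5 and 52.6 CPM at 24 h, and 75.4 and 77.1 CPM at 48 h, and the 3 times did not overlap. The rise was 1.21-fold at 24 h (log2 0.27 ± 0.04, adjusted p = 4.09e-07) and 1.72-fold at 48 h (0.78 ± 0.04, adjusted p = 5.21e-22). In the siCtrl libraries of BE2C cells, another experiment without GSK-J4, BCL2 was at 90.9 and 92.5 CPM. BCL2L1, which encodes BCL-XL, rose 1.29-fold at 24 h and 1.40-fold at 48 h (0.48 ± 0.05, adjusted p = 1.01e-11), from 26.4 and 26.3 CPM at 0 h to 37.2 and 36.4 CPM at 48 h. MCL1 moved the other way, starting from 340 and 316 CPM, with 297 and 288 CPM after 24 h and 265 and 274 CPM after 48 h. Its fall was small against its level, 1.22-fold at 48 h (log2 -0.29 ± 0.03, adjusted p = 2.71e-11). Within a library, the ratio of BCL2 to BAX counts rose from a mean log2 of 0.33 at 0 h to 1.11 at 24 h and 1.99 at 48 h, whereas the ratio of MCL1 to PMAIP1 counts went from 4.06 to 2.74 and 2.45.

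The wider apoptosis machinery was described from lists, with the median over all tested genes at 0.01 at 24 h and 0.05 at 48 h. Of all tested genes 55.3% passed at 24 h and 71.5% at 48 h, and the list counts are to be read beside these shares. All 12 of 12 integrated stress response genes, the ATF4 programme that includes known regulators of PMAIP1 and BBC3, passed and were higher at both times, their median being 2.18 at 24 h and 1.98 at 48 h on the log2 scale. ATF5 was the highest at 24 h (3.98) and CHAC1, a glutathione-degrading enzyme induced by ATF4, the highest at 48 h (3.17). Of 8 tested other BCL2 family genes, 5 were higher and none lower at 24 h, and 6 were higher and 1 lower at 48 h; the BH3-only gene HRK had the largest change at both (2.96 and 2.78), and BCL2L2, a pro-survival gene, was the one lower at 48 h (-0.23). Of 13 apoptosome and caspase genes, 5 were higher and 6 lower at 24 h and 6 each at 48 h, from CASP10 at 2.38 to CASP8 at -1.42, both initiator caspases, at 48 h. Of 6 tested IAP genes, whose products block caspases, BIRC5 (survivin) was the 1 called lower at both times (-0.48 and -0.93), and BIRC3 rose most at 48 h (0.93).

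Death receptor genes, which feed the extrinsic route, were higher for 6 and lower for 3 of the 10 tested at 24 h, TNFRSF10B being the highest (2.65) and TNFRSF21 the lowest (-0.57). Of 10 genes for the turnover of MCL1 and BIM, 6 were higher and 2 lower at 24 h, all between -0.45 (MAPK3, an ERK kinase that marks BIM for degradation) and 0.21 (DYNLL2, a dynein light chain). Among 10 tested transcription factors upstream of BH3-only genes, 8 were higher at 24 h, MYC the most (2.58), and 1 was lower, MYCN (-0.83). At 48 h 6 were higher, MYC again the most (2.82), and 2 were lower, MYCN the most (-1.06). Neuroblastoma marker genes moved in the same libraries, 9 of 10 being lower at 48 h, their sum going from 4073 and 4148 CPM to 3356 CPM in both 48 h libraries; their part in these results was not tested.

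The siRNA comparison asked whether lowering KDM6B by other means moved the same genes. KDM6B, the target, was not lower in the libraries labelled siKDM6B. The siCtrl libraries gave 6.47 and 8.76 CPM, and 8.99, 7.11 and 8.26 CPM were found with N1, N2 and N33 (log2 fold change 0.09 ± 0.30, adjusted p = 0.945), and all 3 values lay above the lower of the siCtrl libraries. Whether the labels match these libraries therefore could not be checked by the target, and no direction below can be read as that of a KDM6B knockdown. The 3 siRNAs were tested as 1 group, so the spread in this test includes differences between siRNAs and is not that of replicates. None of the 10 members passed, and 0 of 17472 genes (0%) did by edgeR. At an unadjusted p under 0.05 there was 1 member and 9.24% of all genes. DESeq2 and limma-voom also called none of the 10, with 164 and 0 genes called in all.

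PMAIP1 was the member at an unadjusted p under 0.05. Control values were 26.2 and 23.7 CPM, and N1, N2 and N33 gave 16.4, 15.8 and 17.2 CPM, so that all 3 siKDM6B libraries lay below both controls. The difference was -0.60 ± 0.22 on the log2 scale (95% interval -1.13 to -0.06) and did not pass by the edgeR test (adjusted p = 0.523). BAX had the same arrangement, 37.9 and 39.9 CPM against 26.7, 28.0 and 29.9 CPM (-0.46 ± 0.21, adjusted p = 0.555). These 2 were the members with every siKDM6B library below both controls, an arrangement found in 16.8% of tested genes.

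**Figure D2:**
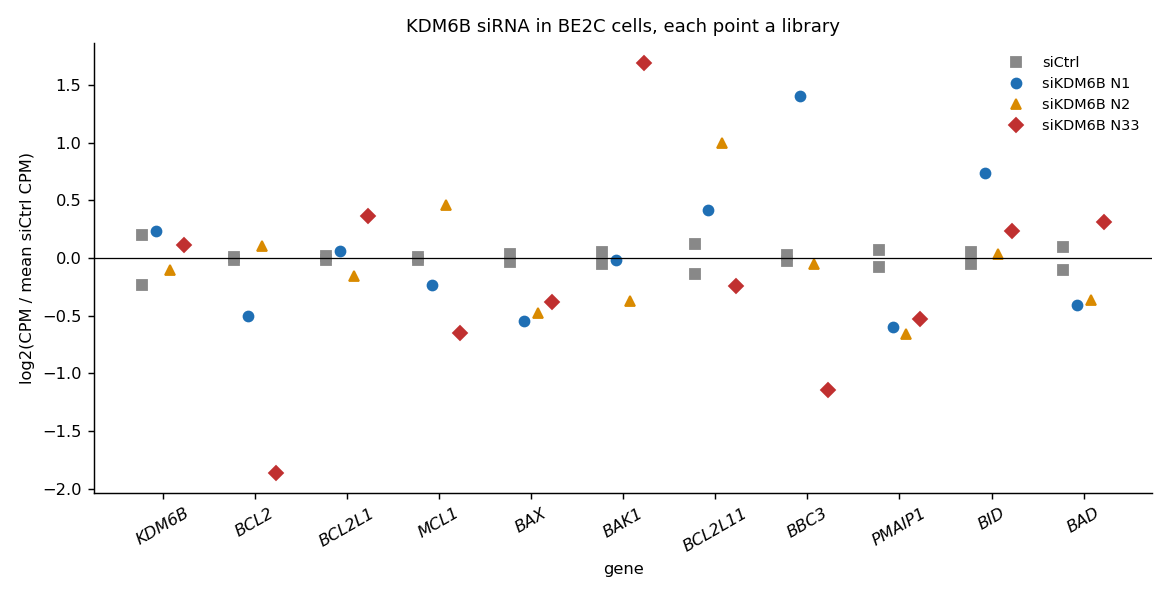
Level of KDM6B and of the 10 members in each siRNA library of BE2C cells, as log2 of the CPM over the mean of the 2 siCtrl libraries (vertical axis). Gray squares are siCtrl, and the blue circle, orange triangle and red diamond are N1, N2 and N33; the 3 siKDM6B libraries lie together for PMAIP1, BAX and KDM6B and apart for BCL2, BAK1 and BBC3.

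For most other members the 3 siRNAs differed from each other more than siCtrl libraries did. For BCL2 the siCtrl values were 90.9 and 92.5 CPM, and N1, N2 and N33 gave 65.0, 98.7 and 25.3 CPM. BAK1 was at 86.1 CPM in N33 and between 20.6 and 27.6 CPM in the other 4 libraries. BBC3 ranged from 2.36 CPM (N33) over 5.05 CPM (N2) to 13.9 CPM (N1), beside 5.13 and 5.32 CPM in the controls. MCL1 was highest in N2 (392 CPM) and lowest in N33 (182 CPM), with 282 and 287 CPM in siCtrl. Without N33 the fold change of BAK1 turned from 0.73 to -0.18, that of MCL1 from -0.06 to 0.16 and that of BCL2L1 from 0.10 to -0.04, and still none of the members passed; PMAIP1 was at -0.63 (adjusted p = 0.212). Without N1 the value of BBC3 turned from 0.44 to -0.49. The common coefficient of variation was 0.35 in this experiment and 0.0219 in the GSK-J4 experiment, and the 95% intervals were correspondingly wide, from -1.77 to 0.69 for BCL2 and from -1.25 to 2.13 for BBC3.

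The palbociclib libraries measured the response of 4 lines to the block of CDK4 and CDK6, which stops cells before DNA replication. In each line BCL2 rose and PMAIP1 fell, and these were the only members to pass in every line. In CHLA15 8 of the 10 members passed, 5 higher and 3 lower, where 29.8% of all 22133 tested genes did, 14.2% higher and 15.6% lower. CHLA20 had 5 members called, 3 higher and 2 lower, against 29.6% of all genes, 13.7% higher and 15.9% lower. NB1643 had 6, 4 higher and 2 lower, against 39.9%, 20.3% higher and 19.7% lower, and NB1691 had 3, 1 higher and 2 lower, against 32.8%, 17.4% higher and 15.5% lower. With a log2 change above 0.5 also required, 2, 3, 5 and 3 members were counted in this order of lines, beside 11.7%, 12%, 19.4% and 13.7% of tested genes. The count in CHLA15 came to 5 without CHLA15 palbociclib replicate 1, and that in NB1691 to 5 without either CHLA20 control library, BID and BAD then passing. No pro-survival member was called lower and no effector was called higher in any of the 4 lines.

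PMAIP1 stood at 68.8 and 77.0 CPM in untreated CHLA15 and 40.5 and 41.0 CPM with palbociclib, a 1.79-fold fall (log2 -0.84 ± 0.12, adjusted p = 1.87e-05). In CHLA20 it went from 102 and 106 CPM to 42.5 and 43.1 CPM, a 2.43-fold fall (-1.28 ± 0.12, adjusted p = 1.03e-07). The untreated libraries of NB1643 differed from each other, 59.8 and 87.6 CPM, and both lay above the treated ones at 36.1 and 38.3 CPM (-0.98 ± 0.12, adjusted p = 1.71e-06). NB1691 went from 32.3 and 31.3 CPM to 20.7 and 17.8 CPM (-0.72 ± 0.12, adjusted p = 0.000163). PMAIP1 is thus a gene that rose with GSK-J4 in BE2C cells and fell with palbociclib in the other 4 lines; since line, compound, dose and time all differed, no test was made between the 2 experiments.

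BCL2 went from 295 and 282 CPM to 408 and 417 CPM in CHLA15, and from 305 and 263 CPM to 435 and 429 CPM in CHLA20. In NB1643 it went from 169 and 164 CPM to 232 and 244 CPM, and in NB1691, where it started lowest, from 12.7 and 13.5 CPM to 27.0 and 26.1 CPM. Treated and untreated libraries did not overlap in any line, a description given without the share over all tested genes. The rises were 1.43-fold, 1.52-fold, 1.43-fold and 2.02-fold in this order of lines (log2 0.52 ± 0.06, 0.61 ± 0.06, 0.52 ± 0.06 and 1.02 ± 0.07), each with an adjusted p of 3e-06 or less. BCL2L1 rose in CHLA15 (0.20 ± 0.06), CHLA20 (0.27 ± 0.06) and NB1643 (0.54 ± 0.06, adjusted p = 3.8e-07), but the CHLA15 rise did not pass without CHLA15 palbociclib replicate 1 (0.16, adjusted p = 0.132) or without CHLA15 control replicate 2 (0.14, adjusted p = 0.185). In NB1691 BCL2L1 was at 134 and 138 CPM in control and 139 and 138 CPM with palbociclib (0.02, 95% interval -0.10 to 0.13). MCL1 rose by 0.19 ± 0.04 in CHLA15 (adjusted p = 0.00345) and by 0.14 ± 0.04 in CHLA20 (adjusted p = 0.0264); the latter call was lost without any one of the 8 CHLA libraries, with adjusted p from 0.0684 to 0.289. In CHLA20 the MCL1 call was also lost without a filter or with only the groups compared in the fit. For MCL1 the 95% interval was -0.04 to 0.15 in NB1643 and -0.11 to 0.08 in NB1691.

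**Figure D3:**
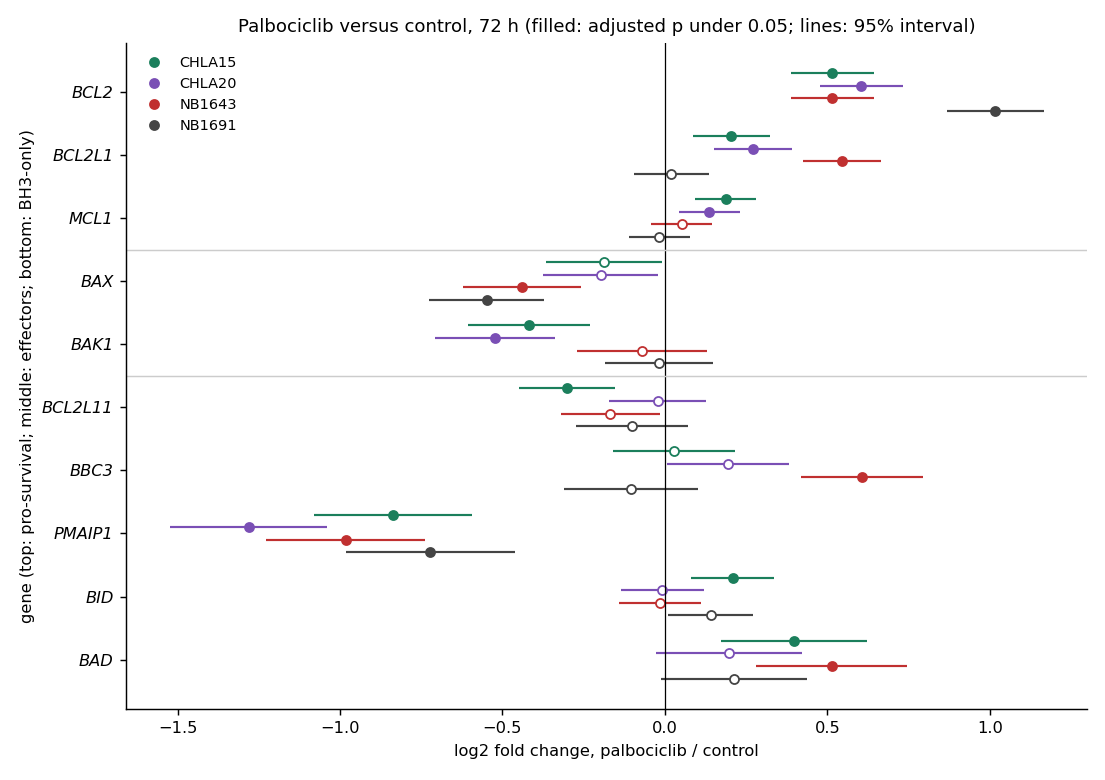
Log2 fold change of each member with palbociclib against control (horizontal axis) in CHLA15 and CHLA20 at 300 nM and in NB1643 and NB1691 at 3 µM. Circles are edgeR estimates, filled where the adjusted p was under 0.05, and lines are 95% intervals; BCL2 lies to the right of 0 and PMAIP1 to the left in all 4 lines.

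The 2 effectors fell in different lines. BAX went from 64.6 and 80.3 CPM to 54.9 and 51.7 CPM in NB1643 (log2 -0.44 ± 0.09, adjusted p = 0.000424) and from 107 and 105 CPM to 73.2 and 71.4 CPM in NB1691 (-0.55 ± 0.08, adjusted p = 5.63e-05). In CHLA15 and CHLA20 its treated libraries also lay below the control ones, by -0.19 and -0.20, without passing (adjusted p = 0.11 and 0.0913); it passed in CHLA15 without any one of the control libraries of CHLA20 or NB1643 (adjusted p from 0.0248 to 0.0476) and in CHLA20 without CHLA20 control replicate 1 (-0.32, adjusted p = 0.00766) or either NB1643 control library (adjusted p = 0.012 and 0.0123). BAK1 passed in the 2 CHLA lines only. It fell from 12.1 and 12.5 CPM to 8.87 and 9.53 CPM in CHLA15 (-0.42 ± 0.09, adjusted p = 0.00139) and from 12.1 and 15.1 CPM to 9.27 and 9.61 CPM in CHLA20 (-0.52 ± 0.09, adjusted p = 0.000153), while NB1643 and NB1691 gave -0.07 (95% interval -0.27 to 0.13) and -0.02 (-0.18 to 0.15).

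BH3-only genes other than PMAIP1 moved little or in single lines. BBC3 rose 1.52-fold in NB1643, from 16.5 and 14.5 CPM to 25.8 and 21.4 CPM (0.61 ± 0.09, adjusted p = 2.18e-05), and did not pass elsewhere (0.03, 0.20 and -0.10 in CHLA15, CHLA20 and NB1691). BCL2L11 fell in CHLA15, from 64.8 and 62.7 CPM to 53.6 and 49.8 CPM (-0.30 ± 0.07, adjusted p = 0.0031). In CHLA20 and NB1643 it gave -0.02 and -0.17, without passing. The NB1643 value ran from -0.20 to -0.14 without 1 library each, and it passed with total counts in place of TMM (adjusted p = 0.0493). FOXO3 was called higher in CHLA15 (0.52) and also in CHLA20 and NB1643, and its part was not tested. BAD rose in CHLA15 (0.40 ± 0.11, adjusted p = 0.00828) and in NB1643, where it went from 19.8 and 19.9 CPM to 30.3 and 26.2 CPM (0.51 ± 0.11, adjusted p = 0.00104). BID rose in CHLA15 (0.21 ± 0.06, adjusted p = 0.0144) and gave values between -0.01 and 0.14 in the other 3. The calls for BAD and BID in CHLA15 did not hold without CHLA15 palbociclib replicate 1 (adjusted p = 0.0977 and 0.137) or CHLA15 control replicate 1 (0.079 and 0.0511), nor that for BID without CHLA15 control replicate 2 (0.119); BAD passed in CHLA20 without CHLA20 control replicate 2 (0.41, adjusted p = 0.0029).

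Whether the response differed between lines was tested with the line by palbociclib interaction. It does not separate line from dose, which differed between the CHLA and the NB lines but not within either pair. The interaction passed for 5 of the 10 members, beside 38% of all tested genes. These were BCL2 (adjusted p = 0.00084), BCL2L1 (0.000335), BAX (0.0441), BAK1 (0.00487) and BBC3 (0.00132). The BAX call did not hold with limma-voom or with upper-quartile scaling. PMAIP1 (adjusted p = 0.0506) and MCL1 (0.0554) did not pass, lying just above 0.05. BID (0.0976), BCL2L11 (0.145) and BAD (0.261) lay further from it. In 23 alternative fits, left-out libraries included, PMAIP1 passed in 11 and MCL1 in 6. The call for BAX was lost without any one of 11 of the 16 libraries, with adjusted p of up to 0.121, and 9 members passed without CHLA20 control replicate 1 and 8 without NB1643 control replicate 2. PMAIP1 passed without any one of 7 libraries, among them either NB1643 control library (adjusted p = 4.7e-05 and 6.3e-05).

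**Figure D4:**
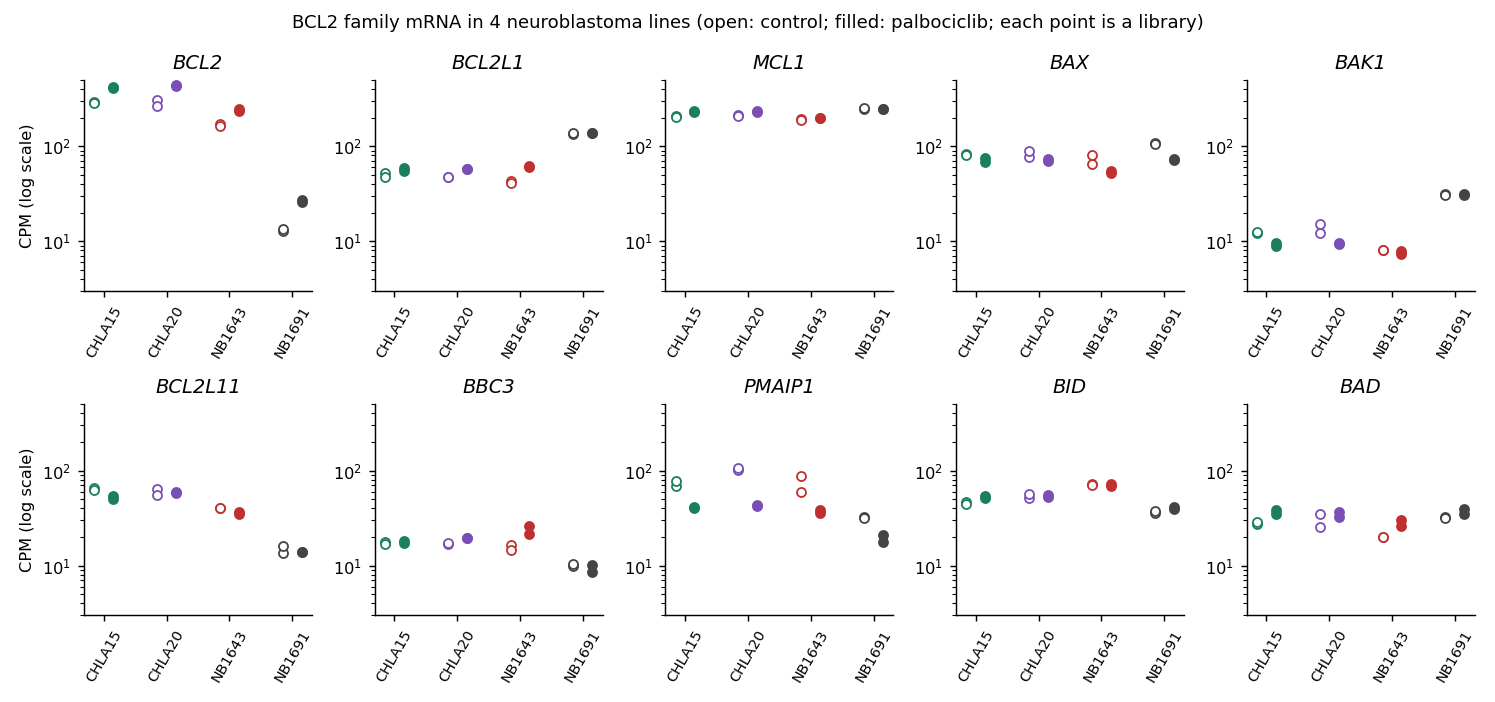
Level of each member in CPM (vertical axis, log scale) in CHLA15, CHLA20, NB1643 and NB1691 cells. Each point is a library, open for control and filled for palbociclib; NB1691 lies apart for BCL2, BCL2L1, BAK1 and BCL2L11, and the filled points lie below the open ones for PMAIP1 in every line.

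Among untreated cells every member differed between the 4 lines, as did 91.2% of all tested genes, though BAX did not with library totals in place of TMM (adjusted p = 0.118), so the order of the levels is more telling than the count. BCL2 was highest in CHLA15 and CHLA20, which did not differ beyond their spread (adjusted p = 0.908), lower in NB1643, and lowest in NB1691, at 12.7 and 13.5 CPM (log2 -3.66 ± 0.07 SE against NB1643, adjusted p = 3.26e-19). BCL2L1 had the opposite place in NB1691, 134 and 138 CPM against 40.5 to 51.8 CPM in the other 3 lines. BAK1 was also highest in NB1691, at 31.3 and 30.9 CPM against 8.0 to 15.1 CPM, whereas BCL2L11, at 13.7 and 16.1 CPM against 40.1 to 64.8 CPM, and PMAIP1, at 32.3 and 31.3 CPM against 59.8 to 106 CPM, were lowest there. BBC3 was also lowest in NB1691 (9.86 and 10.3 CPM against 14.5 to 17.7 CPM), as was BID (35.7 and 37.7 CPM), which was highest in NB1643 (72.5 and 70.3 CPM). BAD was lowest in NB1643, at 19.8 and 19.9 CPM, and did not pass between NB1691 and either CHLA line. The NB1691 libraries had the low neuroblastoma marker sum, the high COL1A1, the high MDM2 and the MYCN level given above, and their part in these differences was not tested.

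CHLA15 and CHLA20 resembled each other, with 2 of 10 members called, PMAIP1 (0.52 higher in CHLA20, adjusted p = 0.00506) and BID (0.25 higher, adjusted p = 0.0128), beside 12.4% of all genes; the PMAIP1 call did not pass without CHLA15 control replicate 1 (adjusted p = 0.0797), nor that of BID without either CHLA15 control library (0.0572 and 0.108) or CHLA20 control replicate 2 (0.139). BAX and MCL1 varied least over the untreated lines, from 64.6 to 107 CPM and from 189 to 254 CPM. MCL1 was called higher in NB1691 than in each other line (log2 0.29, 0.24 and 0.38), and BAX likewise (0.37, 0.35 and 0.55), but with library totals in place of TMM these became -0.12, -0.16 and -0.04 for MCL1 and -0.03, -0.05 and 0.13 for BAX. The BAX call against CHLA20 also did not pass without CHLA20 control replicate 1 (adjusted p = 0.0771). That scaling moved the median of all genes by -0.41, -0.40 and -0.42 in these 3 comparisons.

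**Figure D5:**
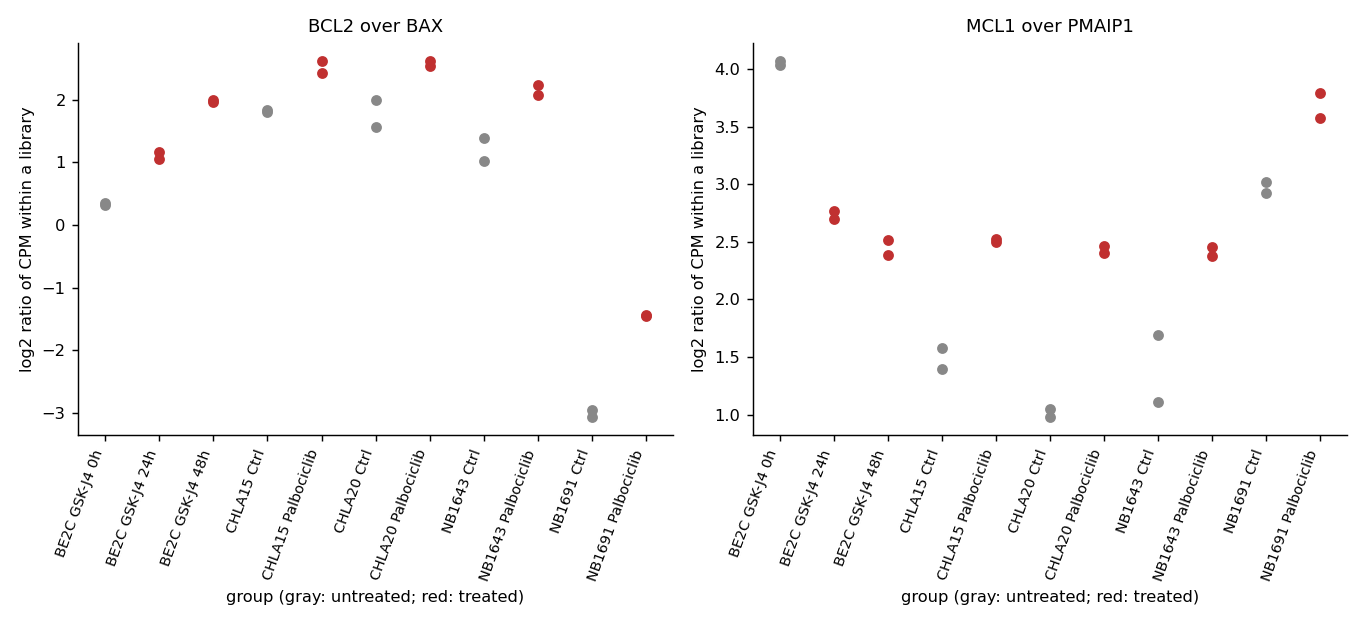
Log2 ratio of BCL2 to BAX counts (left) and of MCL1 to PMAIP1 counts (right) within each library of the GSK-J4 and palbociclib experiments, by group. Gray points are untreated and red points treated libraries; the treated libraries lie above the untreated ones of their line in both panels except for MCL1 over PMAIP1 in BE2C cells with GSK-J4, where they lie below.

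Within libraries, the ratio of BCL2 to BAX counts was higher with palbociclib than in control in every line, from a mean log2 of 1.82 to 2.52 in CHLA15, 1.78 to 2.58 in CHLA20, 1.21 to 2.16 in NB1643 and -3.01 to -1.44 in NB1691. The ratio of MCL1 to PMAIP1 went from 1.49 to 2.51, 1.02 to 2.43, 1.40 to 2.42 and 2.97 to 3.68 in the same order, opposite to its course with GSK-J4. These are ratios of CPM, not corrected for the lengths of the genes, and serve only to compare libraries.

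In the lists around the family, integrated stress response genes fell for 10 of 12 in CHLA15 (median log2 -0.92) and in CHLA20 (-1.16), with CHAC1 lowest in each (-3.06 and -3.53), where medians over all genes were near 0. In NB1643 4 were higher and 3 lower, and in NB1691 7 were higher and none lower. Of all tested genes, 29.8%, 29.6%, 39.9% and 32.8% passed in CHLA15, CHLA20, NB1643 and NB1691, and the list counts are to be read beside these shares. HRK passed and was higher in all 4 lines (1.51, 1.32, 0.45 and 1.96), though at no more than 5.49 CPM outside NB1643, and so did BOK, a BAX-like gene (0.74, 0.60, 0.63 and 0.26). Of the 10 tested other BCL2 family genes, 2 were called higher and 2 lower in each of CHLA15, CHLA20 and NB1643. BCL2L12 was the lowest called in each of these lines. Of 7 IAP genes, BIRC5 was the lowest called in CHLA20 (-0.54), NB1643 (-3.74) and NB1691 (-3.87), a gene expressed in dividing cells. Of 13 apoptosome and caspase genes 9 were lower in NB1643, ENDOG most (-1.89), and 1 was called in NB1691. Of 10 neuroblastoma markers 8 were higher in NB1643, their sum going from 3613 and 3615 CPM to 5531 and 5703 CPM, and 6 were higher in NB1691; their part in these results was not tested. The summed level of 14 markers of other cell types (fibroblast, immune, endothelial, Schwann and epithelial cell genes) moved as well, from 526 and 537 CPM to between 394 and 412 CPM in CHLA15, from 467 and 470 CPM to between 333 and 344 CPM in CHLA20 and from 129 and 132 CPM to between 52.3 and 54.2 CPM in NB1643. In NB1691 it went from 16330 and 16632 CPM to between 21141 and 22012 CPM, most of it COL1A1. SOX10 was at or near 0 throughout, and the part of these markers was not tested. Genes for the turnover of MCL1 and BIM stayed between -0.45 and 0.40 in all 4 lines.

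As a description of likeness over the 8 palbociclib and control groups, the gene outside the family with the highest Pearson r of mean log2 CPM was PALM for BCL2 (0.998), RELB for BCL2L1 (0.996), LINC00327 for MCL1 (0.989), ZW10 for BAX (0.977) and IFITM2 for BAK1 (0.999). For the BH3-only genes it was PHF2P2 for BCL2L11 (0.998), RP11-4L24.4 for BID (0.993), TSSC4 for BBC3 (0.994), EMILIN3 for PMAIP1 (0.984) and STS for BAD (0.983). The groups share their cell lines in pairs, and the distance of NB1691 from the other lines weighs heavily in such an r.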

How the data were processed

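RNA-seq was measured as paired-end reads of 100 bases. The deposited files hold whole read counts per gene; per the study's methods and the submitters' processing notes, reads were aligned to GRCh37-lite with STAR 2.5.3a and other aligners and the authors counted them with HTSeq. The annotation is named Gencode vM5, a mouse release name, although the gene symbols are human, and the strand setting is not given in the sources used here. The extraction protocol speaks of xenograft tissue, whereas the labels and methods describe cultured lines; the libraries are called cell lines here.

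Each BE2C library was the sum of its 2 files, and 5.70% to 18.9% of reads fell in no feature and 2.40% to 3.85% in several; such rows were left out of library sizes. The 3 siKDM6B libraries, each of a different siRNA, formed 1 group, so the spread in that comparison includes differences between siRNAs. The main test was the quasi-likelihood test of edgeR 4.0.16, run in R 4.3.3 (TMM scaling, filterByExpr, all libraries of an experiment in 1 fit). Every adjusted p is that test's, with Benjamini-Hochberg adjustment over all tested genes of a comparison and a threshold of 0.05, and values after ± are standard errors. CPM are TMM-scaled. Alternatives were DESeq2 1.42.0, limma-voom (limma 3.58.1), total-count and upper-quartile scaling, other count filters, each file as a sample, only the groups compared, a replicate block, a joint BE2C fit, an added fold threshold, and leaving out each library. Scripts were tested on simulated data. Libraries held 36186567 to 93011010 gene counts, so 3 counts correspond to at most 0.0829 CPM, a limit that covers counting error only.

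Symbols were matched to GENCODE v44lift37 for positions and exon lengths and to RefSeq promoters (9 of 10 members matched). The genes named were the members, KDM6B, the called gene with the highest and that with the lowest change of each list, and the gene most correlated with each member; MDM2, COL1A1, KDM6A and list genes named in further comparisons (MYCN, FOXO3, HRK, BOK, BIRC5) were added after their values were seen. The members and lists were chosen with earlier results of these data known. Some items are not reported here.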

Additional observations from a re-analysis of the deposited data

Results flagged for a closer look

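The effect of palbociclib differed between the 4 lines for 5 members, by the line by palbociclib interaction of the edgeR quasi-likelihood test with Benjamini-Hochberg adjustment. Line and dose cannot be told apart between the CHLA and the NB lines, since CHLA15 and CHLA20 received 300 nM and NB1643 and NB1691 received 3 µM. Within either pair of lines the dose was the same. For BCL2 (adjusted p = 0.00084) the log2 change was 1.02 in NB1691, where the gene started lowest, and 0.52 to 0.61 in the other 3. For BCL2L1 (adjusted p = 0.000335) it was 0.54 in NB1643 and 0.02 in NB1691. BAX (adjusted p = 0.0441) ranged from -0.55 in NB1691 to -0.19 in CHLA15, with the dependence on single libraries, test and scaling given above. BAK1 (adjusted p = 0.00487) ranged from -0.52 in CHLA20 to -0.02 in NB1691, and BBC3 (adjusted p = 0.00132) from 0.61 in NB1643 to -0.10 in NB1691. The demethylase genes, which are no members of the family, differed too. KDM6B (adjusted p = 0.00754) changed by 0.20 in CHLA15, which did not pass, and by 0.46, 0.72 and 0.48 in CHLA20, NB1643 and NB1691, and KDM6A (adjusted p = 0.0229) from 0.10 in NB1643 to -0.20 in NB1691.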

How the results depend on the processing

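The GSK-J4 calls at 24 h and 48 h against 0 h, and the calls for BCL2 and PMAIP1 with palbociclib in all 4 lines, held under every other test, scaling, filter, block and left-out library, but not all in the fit of GSK-J4 and siRNA libraries together, where the spread of the siRNA libraries entered the estimate. The fold threshold, an added requirement, is given apart. In that fit 1, 2 and 0 members passed at 24 h, at 48 h and between them, and 1 (PMAIP1, -0.60, adjusted p = 0.0369) in the siRNA comparison; with each file as a sample, where files of 1 library are not separate replicates, 2 did (BAX and PMAIP1). With a log2 change above 0.5 also required the counts were 3 at 24 h, 2 between 24 h and 48 h, 2 in CHLA15 and 3 in CHLA20. With only the groups compared in the fit, 5 passed in NB1691. Without 1 library each, counts ran from 8 to 10 between 24 h and 48 h with GSK-J4, 5 to 9 in CHLA15, 3 to 5 in NB1691 and 4 to 9 for the interaction.

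The replicate numbers did not pair the samples: deviations of same-numbered libraries correlated between -0.121 and 0.0876. With the replicate block 7, 10 and 10 members passed with GSK-J4 (24 h, 48 h, between them), 8, 5, 6 and 3 with palbociclib (CHLA15, CHLA20, NB1643, NB1691), 7 for the interaction and 10 between untreated lines. No paired analysis was possible for the siRNA comparison because the 3 siKDM6B libraries carry no numbers shared with siCtrl.

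The treatment values that turned sign were none of them called. BID at 24 h was 0.018 with total counts, 0.043 with the upper quartile, 0.0012 without a filter, 0.017 with at least 10 counts in every library, 0.013 with each file as a sample and 0.0046 with only the groups compared. With total counts BBC3 was -0.0071 in CHLA15 and BCL2L1 -0.064 in NB1691. With the upper quartile BID was 0.043 in NB1643, and MCL1 and BAK1 were each 0.026 in NB1691; DESeq2 gave 0.011 for BID in NB1643. Among called differences between untreated lines, total counts turned MCL1 to -0.12, -0.16 and -0.036 in NB1691 against CHLA15, CHLA20 and NB1643, and BAX to -0.035 and -0.051 against the first 2.

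Without 1 library each, values at 24 h ran from -0.027 to 0.18 for BCL2L11, from -0.044 to 0.038 for BID and from -0.12 to 0.0065 for BAD. In the siRNA comparison they ran from -0.042 to 0.22 for BCL2L1, -0.42 to 0.16 for MCL1, -0.18 to 1.08 for BAK1, -0.49 to 0.86 for BBC3 and -0.38 to 0.021 for BAD. In CHLA15 they ran from -0.013 to 0.067 for BBC3, and in CHLA20 from -0.13 to 0.060 for BCL2L11, -0.094 to 0.048 for BID and -0.028 to 0.41 for BAD. In NB1643 BID ran from -0.058 to 0.029. In NB1691 the ranges were -0.00080 to 0.046 for BCL2L1, -0.045 to 0.013 for MCL1, -0.031 to 0.0085 for BAK1, -0.21 to 0.028 for BCL2L11 and -0.22 to 0.0021 for BBC3. In all, 1435 treatment values of members kept their direction and side of the threshold, 51 lost and 30 gained it, and 54 turned; the cause was not tested. Each group held 2 libraries or 1 per siRNA, which limits the precision. In the palbociclib experiment the 2 control libraries of CHLA20 and those of NB1643 differed most from each other. The chi-square per degree of freedom of their gene counts was 19.2 and 24.3. It was 2.22 to 7.14 between the 2 libraries of the other groups in that experiment.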
